A study of Mus musculus with 9 samples.

Results

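The Slc25 genes encode the mitochondrial carrier family, the proteins that move nucleotides, phosphate, acids, amino acids, cofactors and iron across the inner mitochondrial membrane. All rows of the deposited expression table with an Slc25a symbol were taken, except 1 gene, which gave 36 genes of 13722. No symbol was repeated, and the 36 genes lie on 18 chromosomes. The measurements are RNA sequencing values from the plantaris, a fast hindlimb muscle, of 3-month-old male mice of the C57BL/6J strain (C57BL/6 in the sample labels). The mice breathed 8% oxygen for 0 h (control), 2 h or 6 h, and each time has 3 libraries. All mice, controls included, were killed by cervical dislocation under a mask holding 8% oxygen, no gene was altered, and the labels do not say that each library is a separate mouse.

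The only controls are those at 0 h, so the effects of low oxygen, of the clock and of handling cannot be told apart. A p-value here rests on how much libraries of a group vary, which may in part be technical. Levels are RPKM, reads scaled by exon length and by the size of the library, as the authors deposited them. In this whole muscle, fewer cells of a type and less RNA per cell cannot be told apart.

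Most members are named by what they carry. The ADP/ATP carriers send ATP made in the matrix out to the cytosol and bring ADP back, the phosphate carrier supplies the phosphate for that ATP, and the aspartate/glutamate and oxoglutarate/malate carriers together form the malate-aspartate shuttle that brings cytosolic reducing power into the mitochondrion. Other members supply pyrimidine nucleotides for mitochondrial DNA and RNA, cofactors such as coenzyme A and S-adenosylmethionine, or iron for heme and iron-sulfur clusters. In muscle the family serves the constant exchange of ATP and ADP that contraction demands.

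Promoters are shown for 3 members, because the results below turn on them. Slc25a33, a pyrimidine nucleotide carrier, was the member that rose, and Slc25a28 and Slc25a34 had the lowest adjusted p-values of the higher and of the lower members at 2 h. The sequences are the 250 bases before the RefSeq gene start, read from the GRCm38.p6 build on the strand of the gene, at chr4:149774268-149774517 on the minus strand for Slc25a33, chr19:43674882-43675131 on the minus strand for Slc25a28 and chr4:141623835-141624084 on the minus strand for Slc25a34. Capitals mark every match to 1 of 6 words searched on both strands.
Slc25a33: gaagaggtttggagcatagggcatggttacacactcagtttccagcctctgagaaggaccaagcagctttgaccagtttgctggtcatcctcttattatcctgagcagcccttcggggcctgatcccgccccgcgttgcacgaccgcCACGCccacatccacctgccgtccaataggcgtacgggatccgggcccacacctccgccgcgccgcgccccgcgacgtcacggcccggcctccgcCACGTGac
Slc25a28: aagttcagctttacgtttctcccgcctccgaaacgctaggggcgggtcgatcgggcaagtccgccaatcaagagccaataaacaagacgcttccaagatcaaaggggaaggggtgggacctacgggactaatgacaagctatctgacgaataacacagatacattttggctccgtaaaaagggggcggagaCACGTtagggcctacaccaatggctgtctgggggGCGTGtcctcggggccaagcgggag
Slc25a34: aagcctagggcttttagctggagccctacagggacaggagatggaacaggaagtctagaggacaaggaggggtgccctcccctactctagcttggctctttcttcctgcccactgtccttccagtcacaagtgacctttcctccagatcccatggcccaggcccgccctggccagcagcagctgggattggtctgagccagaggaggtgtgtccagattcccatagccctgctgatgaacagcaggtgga

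The words were the E-box CACGTG, the core of the hypoxia response element (ACGTG or GCGTG), the FoxO word GTAAACA, the NRF1 word (GCGCA and GCGC parted by 1 base), the ERR word TCAAGGTCA and the CRE TGACGTCA. The Slc25a33 window held 1 E-box that begins 8 bases before the start, and 3 hypoxia core words, 2 of which lie inside that E-box on opposite strands, since every E-box holds the core on both strands. The Slc25a28 window held 2 hypoxia core words, at 25 and 59 bases before the start, and the Slc25a34 window held 0 matches to any of the 6 words. RefSeq promoters were matched for 28 of the 36 members, 36 promoters in all. Some of these windows belong to the same gene and overlap, as for Slc25a14 and Slc25a23, so 1 site can be counted in more than 1 promoter. The hypoxia core was present in 21 of these 36 promoters (58.3%, in 17 of 28 genes) and in 38.6% of all 32851 promoters of that length in the table. The E-box was present in 7 of 36 (19.4%, in 6 of 28 genes) and in 6.02% of all. The FoxO and ERR words were present in 0 of the 36 member promoters and in 3.17% and 0.387% of all, the NRF1 word in 1 (2.78%) against 3.74%, and the CRE in 2 (5.56%) against 1.55%. A word match is a description of these letters, and binding was not measured.

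The reads recovered per library ran from 72706707 (6 h replicate 3) to 137097900 (2 h replicate 3). The marker levels were those of a fast muscle. The 10 fast fibre genes summed to between 99029 and 116936 RPKM per library, and the 10 slow fibre genes to between 502 and 5846 RPKM. These lists do not tell the plantaris from other fast muscles. Marker sums of other cells differed among libraries of a group. The 10 fibroblast and matrix genes summed to 991 and 1090 RPKM in control replicates 2 and 3 and to 1156 RPKM in 6 h replicate 2, against 323 to 627 RPKM in the other 6 libraries, with all 2 h libraries below all controls. Macrophage genes were high in the same 3 libraries, with 177, 200 and 299 RPKM against 45.0 to 67.4 RPKM. The 7 Schwann and nerve genes present summed to 651 RPKM in 6 h replicate 1 and to between 54.1 and 86.0 RPKM elsewhere. The 10 slow fibre genes reached 5846 RPKM in 6 h replicate 3 and lay between 502 and 1256 RPKM elsewhere. Their sums were 676 to 693 RPKM in control, 502 to 618 RPKM at 2 h and 1020 to 5846 RPKM at 6 h. All 6 h libraries thus lay above all controls, and all 2 h libraries below them. Of these 10 genes, 0 were called by limma in any comparison. Whether this bears on the changes of the members was not tested. Of the brown adipocyte list 1 of 4 genes was in the table, Cidea, at 0.336 to 3.79 RPKM.

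In this muscle the family was dominated by carriers of ATP production. Of the 36 members, 3 averaged at least 100 RPKM over the 9 libraries, 9 lay between 10 and 100, 22 between 1 and 10, and 2 below 1. The median member averaged 6.12 RPKM, against 4.29 RPKM for all genes tested. Slc25a4, the main ADP/ATP carrier of heart and skeletal muscle, alone held between 69.0% and 72.6% of the summed RPKM of the family in a library, and ranked 25 among all genes. Slc25a4, Slc25a11, Slc25a3 and Slc25a12 together held between 87.3% and 89.3%.

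**Figure D1:**
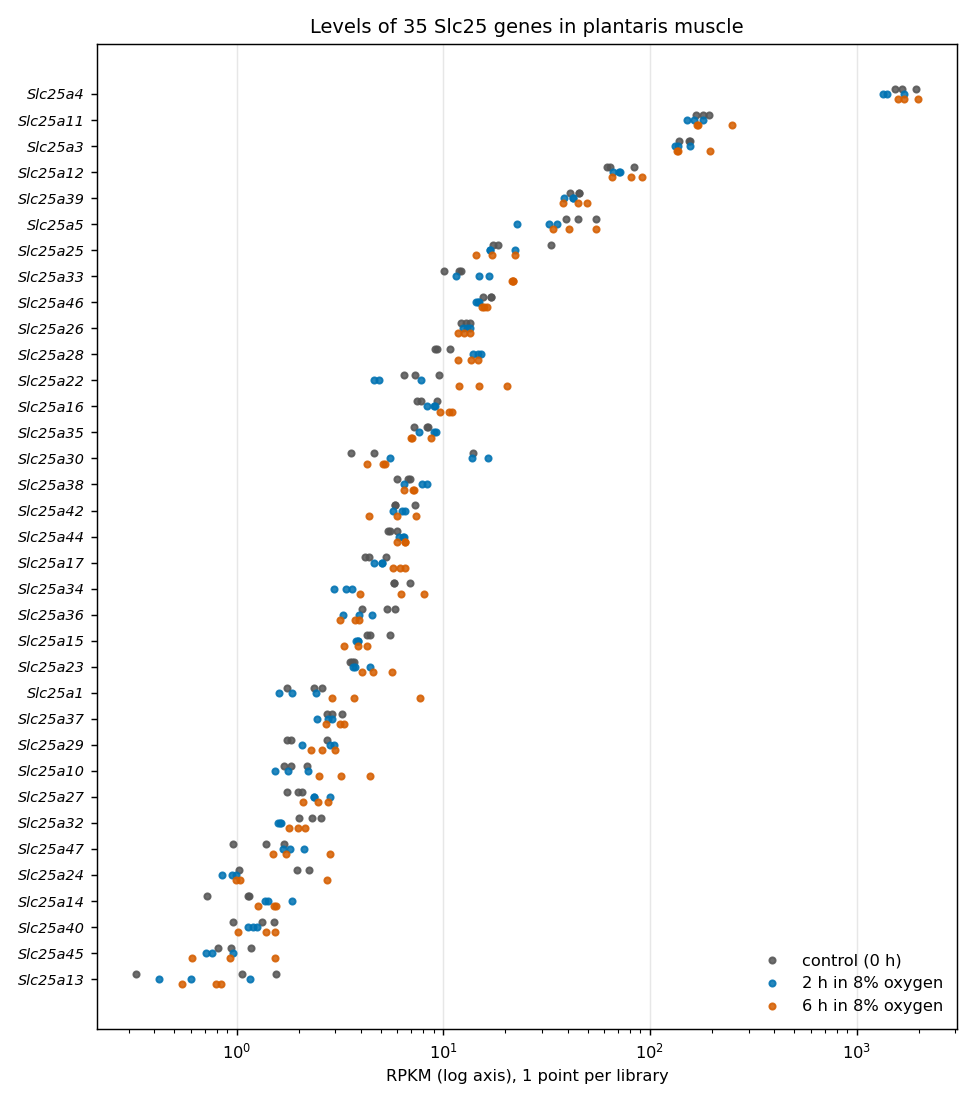
RPKM of 35 of the 36 Slc25 genes (log axis), with 1 point per library coloured by group and genes ordered by their mean. Slc25a4 stands apart at 1344 to 1991 RPKM, most genes lie between 1 and 10 RPKM, and the 6 h points of Slc25a33 lie above its other points.

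Among the ADP/ATP carriers, Slc25a4 stood at 1934, 1658 and 1536 RPKM in control replicates 1 to 3, at 1344, 1403 and 1701 RPKM at 2 h, and at 1689, 1587 and 1991 RPKM at 6 h. The groups overlapped, with the highest level in 6 h replicate 3, the library of high slow fibre genes. Its log2 fold change was -0.21 ± 0.13 (SE) at 2 h and 0.04 ± 0.13 at 6 h, with adjusted p-values of 0.418 and 0.905 in limma's moderated test with Benjamini-Hochberg adjustment over all 13309 genes tested.

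Slc25a5, a more broadly expressed ADP/ATP carrier, stood at 39.1, 54.9 and 44.9 RPKM in control, at 22.8, 32.5 and 35.5 RPKM at 2 h, and at 34.0, 54.7 and 40.5 RPKM at 6 h. All 2 h libraries lay below all controls, and the 3 highest libraries were those of high matrix genes. Its log2 change at 2 h was -0.62 ± 0.22 (adjusted p = 0.166), and -0.39 without those 3 libraries, which leaves control replicate 1 as the only control. In a limma fit of all 9 libraries with a term for those 3, it was -0.32 (adjusted p = 0.442). The cause of these differences was not tested. Slc25a5 has 3 near-identical pseudogenes, of which Gm5529 is 96.8% identical over 900 bases, so its reads may be shared. The ratio of Slc25a4 to Slc25a5 was 29.0 in 6 h replicate 2, 30.2 and 34.2 in control replicates 2 and 3, and reached 59.1 in 2 h replicate 1.

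The phosphate carrier Slc25a3, which also delivers copper to the matrix, stood at 156, 155 and 138 RPKM in control, at 137, 133 and 157 RPKM at 2 h, and at 136, 137 and 195 RPKM at 6 h. The groups overlapped and 6 h replicate 3 was again the highest. The log2 changes were -0.07 at 2 h and 0.04 at 6 h (adjusted p = 0.816 and 0.916).

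Slc25a23, Slc25a24 and Slc25a25 exchange ATP-Mg for phosphate under the control of calcium and so set the size of the adenine nucleotide pool in the matrix. None was called by limma. Slc25a25, the most abundant of them in this muscle, stood at 33.2 RPKM in control replicate 1 and at 14.4 to 22.2 RPKM in the other libraries. Its groups overlapped. The log2 changes of Slc25a25 were -0.25 ± 0.25 at 2 h and -0.31 ± 0.25 at 6 h (limma adjusted p = 0.618 and 0.540). Slc25a24, named after its values were seen, stood at 1.03, 2.25 and 1.96 RPKM in control, at 0.989, 0.951 and 0.854 RPKM at 2 h, and at 1.04, 2.74 and 0.997 RPKM at 6 h. Its 3 high libraries were those of high matrix genes, and the other 6 lay close together. The log2 change of Slc25a24 at 2 h was -0.61 (adjusted p = 0.318), and -0.10 without the 3 matrix-rich libraries, where control replicate 1 is the only control left. With all 9 libraries and a term for those 3, it was 0.01 (limma adjusted p = 0.977). Of all 13309 genes tested, 11.1% were higher in each of the 3 matrix-rich libraries than in each of the other 6, and of the 36 members this held for 2, Slc25a24 and Slc25a5.

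**Figure D2:**
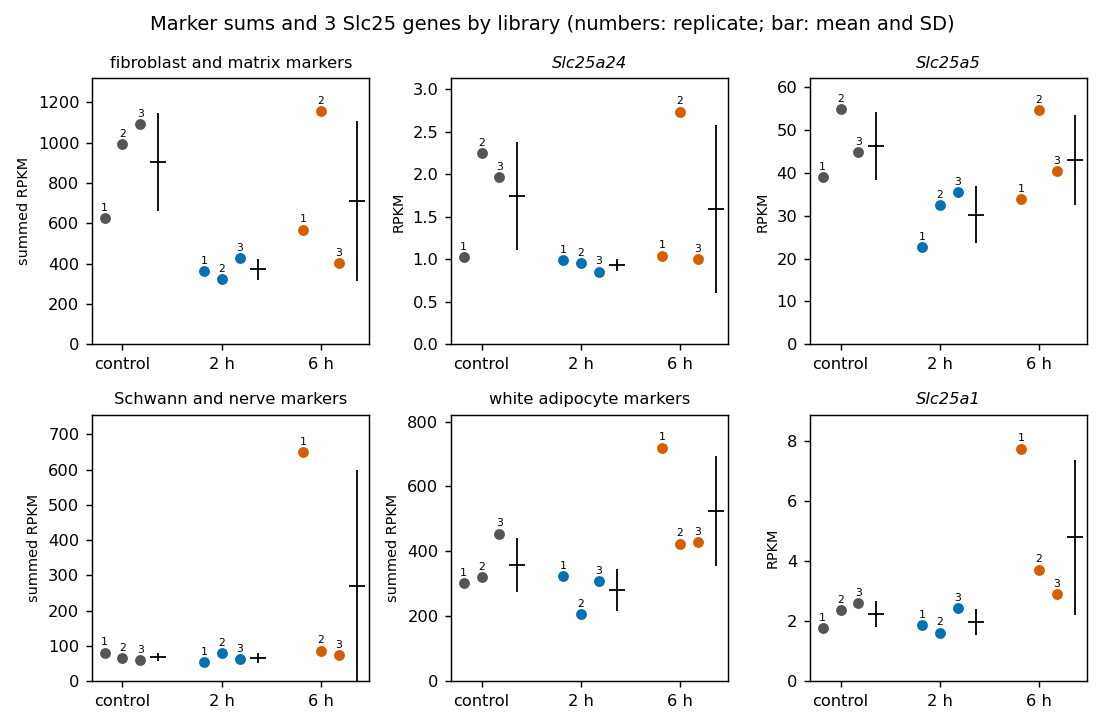
Summed RPKM of fibroblast and matrix, Schwann and white adipocyte markers, and RPKM of Slc25a24, Slc25a5 and Slc25a1, in each library (points numbered by replicate, with mean and SD, n = 3; a bar that would pass below 0 is clipped there). Slc25a24 and Slc25a5 are highest in the 3 libraries with the highest matrix sums, and Slc25a1 is highest in 6 h replicate 1, which has the highest Schwann and adipocyte sums.

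Among the di- and tricarboxylate carriers, Slc25a11, the oxoglutarate/malate carrier of the malate-aspartate shuttle, was the second most abundant member. It stood at 193, 181 and 168 RPKM in control, at 164, 150 and 180 RPKM at 2 h, and at 171, 168 and 249 RPKM at 6 h. It lay above Slc25a3 in each of the 9 libraries, although their ranges over libraries overlapped. Its log2 changes were -0.14 and 0.09 (adjusted p = 0.654 and 0.782), and it overlaps Rnf167 on the opposite strand.

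Slc25a1 exports citrate, the source of carbon for cytosolic fatty acid synthesis. It stood at 1.76, 2.37 and 2.59 RPKM in control, at 1.85, 1.61 and 2.43 RPKM at 2 h, and at 7.75, 3.71 and 2.89 RPKM at 6 h. All 6 h libraries lay above all others, led by 6 h replicate 1. The log2 change of Slc25a1 was 0.85 ± 0.30 at 6 h against control and 1.01 ± 0.30 at 6 h against 2 h (adjusted p = 0.176 and 0.165).

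Slc25a10, the carrier that exchanges malate or succinate for phosphate, showed the same order of libraries at 6 h. It stood at 1.69, 1.83 and 2.18 RPKM in control, at 1.53, 1.77 and 2.21 RPKM at 2 h, and at 4.44, 3.19 and 2.49 RPKM at 6 h. The log2 change of Slc25a10 was 0.66 ± 0.19 at 6 h against control and 0.71 ± 0.19 against 2 h (adjusted p = 0.118 and 0.142), and it overlaps Gm11788 on the opposite strand. For both genes the highest library, 6 h replicate 1, also had the highest sums of Schwann (651 RPKM), white adipocyte (720 RPKM, against 206 to 454 RPKM elsewhere) and erythroid markers. Without that library the log2 changes at 6 h against control were 0.48 for Slc25a1 and 0.47 for Slc25a10 (adjusted p = 0.352 and 0.300).

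Among the aspartate and glutamate carriers, Slc25a12 and Slc25a13 are calcium-stimulated carriers of the malate-aspartate shuttle. Slc25a12, the form known from muscle and brain, stood at 83.6, 62.3 and 63.9 RPKM in control, at 66.4, 71.2 and 71.6 RPKM at 2 h, and at 81.2, 65.7 and 91.3 RPKM at 6 h, with overlapping groups (log2 0.01 and 0.18, adjusted p = 0.982 and 0.540). Slc25a13, the form known from liver, averaged 0.810 RPKM and rested on 1 to 9 reads per library, too few to judge its level or a change. Slc25a40, at a mean of 1.26 RPKM, rested on 204 to 522 reads, so library depth alone does not give the low count of Slc25a13.

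Slc25a22, a carrier of glutamate with protons, had the largest difference of any member at 6 h. It stood at 9.52, 6.47 and 7.32 RPKM in control, at 4.61, 4.89 and 7.79 RPKM at 2 h, and at 14.9, 11.9 and 20.4 RPKM at 6 h. All 6 h libraries lay above all control and all 2 h libraries, with 6 h replicate 3 the highest, while control and 2 h overlapped. The group means were 7.77 ± 1.57, 5.76 ± 1.76 and 15.7 ± 4.29 RPKM (SD, n = 3). The log2 change of Slc25a22 was 0.95 ± 0.24 at 6 h against control (1.94-fold, adjusted p = 0.0869) and 1.37 ± 0.24 at 6 h against 2 h (2.59-fold, adjusted p = 0.0690), the lowest adjusted p of the family in that comparison; neither passed the threshold of 0.05. Counts in the 9 libraries lay between 1966 and 6266 reads. The gene spans 148615638 to 148623791 on the minus strand of chromosome 7 in mm9.

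The other amino acid carriers ranged from 1.76 to 8.35 RPKM and had no called member. They are Slc25a38, which imports glycine for heme synthesis, Slc25a44, a branched-chain amino acid carrier, Slc25a15, the ornithine carrier, and Slc25a29, a carrier of basic amino acids. Their log2 changes lay between -0.26 and 0.26 at 2 h and between -0.28 and 0.27 at 6 h, with adjusted p-values of at least 0.252.

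Among the nucleotide and cofactor carriers, Slc25a33 was the only one of the 36 members called in any of the 3 comparisons. Of all genes tested, 0.774%, 1.6% and 0.143% were called at 2 h, at 6 h and at 6 h against 2 h. Slc25a33 carries pyrimidine nucleotides into the matrix and was first described as a gene induced by insulin and IGF-I. It stood at 11.9, 12.2 and 10.1 RPKM in control, at 11.5, 15.0 and 16.6 RPKM at 2 h, and at 21.8, 21.4 and 21.7 RPKM at 6 h. The 6 h libraries were nearly equal and lay above all others, while 2 h replicate 1 fell within the control range and the other 2 h libraries lay between the groups. The means were 11.4 ± 1.12, 14.4 ± 2.61 and 21.6 ± 0.193 RPKM (SD, n = 3), from 2234 to 4682 reads per library.

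Slc25a33 rose 1.87-fold at 6 h (log2 0.90 ± 0.13 SE, limma adjusted p = 0.0243, higher in 3 of 3 libraries). Its log2 change was 0.31 ± 0.13 at 2 h (adjusted p = 0.242) and 0.59 ± 0.13 at 6 h against 2 h (adjusted p = 0.114). The call at 6 h was lost without control replicate 2, control replicate 3, 6 h replicate 1 or 6 h replicate 3 (adjusted p between 0.0879 and 0.106, log2 between 0.82 and 0.95), and without the 3 matrix-rich libraries together (log2 0.84, adjusted p = 0.270), with 1 control left and 0 of all genes called. In the fits without 1 of those 4 libraries, between 10 and 25 of all genes were called, against 213. The authors' deposited table gives Slc25a33 a raw p of 0.000204 and an adjusted p of 0.0742 at 6 h.

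Slc25a33 lies on the minus strand of chromosome 4 from 149118145 to 149148386 in mm9, and its interval holds all 1090 bases of Gm13068 on the opposite strand, with 281 bases of exon overlap in the GENCODE M21 annotation. Gm13068 stood at 9.77, 9.74 and 7.92 RPKM in control, at 9.38, 11.0 and 13.3 RPKM at 2 h, and at 15.1, 16.6 and 17.4 RPKM at 6 h, and rose as well (log2 0.81, adjusted p = 0.0318). Whether counting used strand is not given in the sources used here, so reads of the pair may be shared. The same holds for Slc25a23, Slc25a25, Slc25a26, Slc25a35, Slc25a37 and Slc25a46, each of which also overlaps another annotated gene on the opposite strand.

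**Figure D3:**
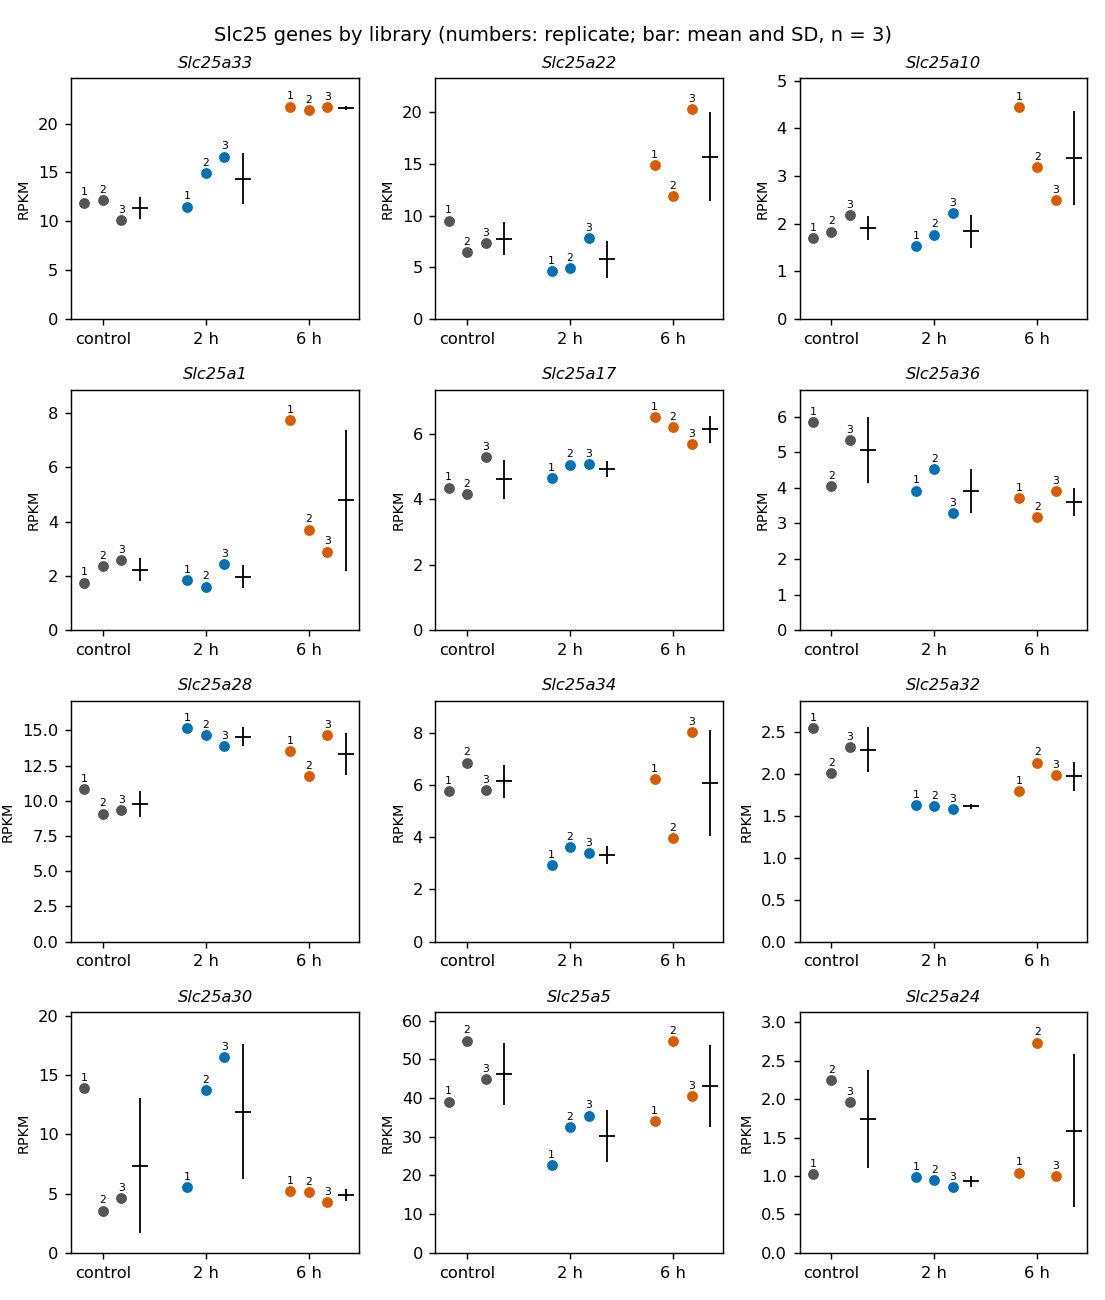
RPKM of 12 Slc25 genes in each library (points numbered by replicate, bars show mean and SD, n = 3; each axis starts at 0). The 6 h libraries of Slc25a33 sit at 21.4 to 21.8 RPKM above all other libraries, the 2 h libraries of Slc25a34 and Slc25a32 sit below all controls, and Slc25a30 is split within the control and 2 h groups.

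Slc25a36 is the other pyrimidine nucleotide carrier of the family, and its levels at 6 h lay on the other side of control. It stood at 5.84, 4.04 and 5.34 RPKM in control, at 3.92, 4.53 and 3.28 RPKM at 2 h, and at 3.72, 3.18 and 3.91 RPKM at 6 h. All 6 h libraries lay below all controls. Its log2 change of -0.43 ± 0.15 was the lowest of the family at 6 h (adjusted p = 0.183). A pseudogene, Gm13217, is near-identical to part of it.

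Slc25a17, a peroxisomal carrier of coenzyme A and related cofactors, stood at 4.35, 4.17 and 5.30 RPKM in control, at 4.64, 5.06 and 5.07 RPKM at 2 h, and at 6.51, 6.21 and 5.69 RPKM at 6 h. All 6 h libraries lay above all others (log2 0.38 ± 0.11 against control, adjusted p = 0.107). Slc25a32, which carries folate or flavin cofactors, stood at 2.55, 2.01 and 2.32 RPKM in control, at 1.63, 1.62 and 1.59 RPKM at 2 h, and at 1.80, 2.14 and 1.98 RPKM at 6 h. The 2 h libraries were nearly equal and lay below all others (log2 -0.40 ± 0.11 against control, adjusted p = 0.109).

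The remaining cofactor carriers described here were Slc25a26, for S-adenosylmethionine, and Slc25a16 and Slc25a42, linked to coenzyme A. Slc25a26 was the steadiest member of the family, at 11.8 to 13.5 RPKM over the 9 libraries, a ratio of highest to lowest of 1.14. Slc25a16 had a log2 change of 0.33 at 6 h (adjusted p = 0.137), and those of Slc25a26 and Slc25a42 lay between -0.11 and 0.02 at both times.

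Among the iron and glutathione carriers, Slc25a39, required for mitochondrial glutathione, was the most abundant. It stood at 45.3, 45.2 and 41.2 RPKM in control, at 42.6, 38.6 and 42.6 RPKM at 2 h, and at 38.2, 44.9 and 49.7 RPKM at 6 h, with overlapping groups and log2 changes of -0.09 and 0.00. Its range of levels overlapped that of Slc25a5, so the order of those 2 genes was not settled.

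Slc25a28, mitoferrin 2, imports iron into mitochondria of cells other than red cell precursors. It stood at 10.8, 9.09 and 9.36 RPKM in control, at 15.1, 14.7 and 13.9 RPKM at 2 h, and at 13.6, 11.8 and 14.7 RPKM at 6 h. All 6 exposed libraries lay above all controls, and the 2 h and 6 h libraries overlapped. The means were 9.76 ± 0.932, 14.6 ± 0.645 and 13.3 ± 1.48 RPKM (SD, n = 3). The log2 change of Slc25a28 was 0.56 ± 0.11 at 2 h (1.47-fold, limma adjusted p = 0.0539), the lowest adjusted p of the family at that time, and 0.43 ± 0.11 at 6 h (adjusted p = 0.0858); neither passed the threshold. The gene spans 43738296 to 43749371 on the minus strand of chromosome 19 in mm9.

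The paralog Slc25a37, mitoferrin 1, which serves red cell precursors, ranged from 2.45 to 3.31 RPKM, with log2 changes of -0.11 and 0.04. Slc25a40, the close relative of Slc25a39, ranged from 0.964 to 1.54 RPKM, with log2 changes of -0.05 and 0.04. A pseudogene, Gm5066, is 96.3% identical to Slc25a40 over 724 bases, so reads of Slc25a40 may be shared.

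The uncoupling-protein-like carriers Slc25a14, Slc25a27 and Slc25a30 resemble the proton carriers of brown fat in sequence, and their substrates are less settled. Slc25a30 stood at 13.9, 3.57 and 4.61 RPKM in control, at 5.51, 13.7 and 16.5 RPKM at 2 h, and at 5.21, 5.13 and 4.27 RPKM at 6 h. Control replicate 1 and 2 h replicates 2 and 3 lay far above the other 6 libraries, so the split ran within both groups. Slc25a30 thus had the highest log2 change of the family at 2 h, 0.76 (that of Slc25a34, -0.80, was larger in size), with a standard error of 0.49 (adjusted p = 0.417), and the largest fall in log2 value from 2 h to 6 h, -1.08 ± 0.49 (adjusted p = 0.317). The value at 2 h followed the control libraries kept: it was 1.31 without control replicate 1 (adjusted p = 0.113) and 0.40 without control replicate 2, and -0.35 (adjusted p = 0.822) without the 3 matrix-rich libraries, where control replicate 1, the high control, is the only one left. Slc25a14 and Slc25a27 had log2 changes of 0.46 and 0.31 at 2 h and of 0.39 and 0.27 at 6 h (adjusted p between 0.178 and 0.274).

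The last group, Slc25a34, Slc25a35, Slc25a45, Slc25a46 and Slc25a47, holds carriers whose substrates are not settled. Slc25a34 stood at 5.76, 6.87 and 5.81 RPKM in control, at 2.95, 3.63 and 3.39 RPKM at 2 h, and at 6.23, 3.97 and 8.05 RPKM at 6 h. The 2 h libraries lay below all others, and the 6 h libraries spanned the control range. The means were 6.14 ± 0.627, 3.32 ± 0.345 and 6.08 ± 2.04 RPKM (SD, n = 3). The log2 change of Slc25a34 was -0.80 ± 0.21 at 2 h (adjusted p = 0.0897), the lowest of the family at that time, 0.74 ± 0.21 at 6 h against 2 h (adjusted p = 0.148), and -0.06 at 6 h against control. The gene spans 141174739 to 141179736 on the minus strand of chromosome 4 in mm9. Slc25a46, an outer membrane member linked to mitochondrial shape, was steady at 14.5 to 17.1 RPKM, and Slc25a45 rested on 23 to 88 reads per library.

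At 2 h against control, 0 of the 36 members were called by limma, where 0.774% of all genes tested were. On reads recovered from the RPKM values, edgeR called 0 of 35 members and 1.42% of all genes, and DESeq2 called 3 of 36 members and 10.3% of all genes. At an unadjusted p below 0.05, 4 members were higher and 3 lower, against 11.2% and 8.92% of all genes. The groups did not overlap for 4 higher and 6 lower members, against 14.9% and 12.6% of all genes. Means were higher for 15 members and lower for 21, where 49.9% of all genes had a higher mean, with a median log2 change of -0.06 against 0.00 for all genes. The counts of members lie close to these shares of all genes.

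At 6 h against control, 1 of 36 members was called, against 1.6% of all genes, or 0.999% counting rises alone. edgeR called 1 of 35 members tested and 2.5% of all genes, and DESeq2 4 of 36 members and 8.31% of all genes. At an unadjusted p below 0.05, 9 members were higher and 2 lower, against 12.0% and 7.08% of all genes. Groups did not overlap for 11 higher members and 1 lower member, against 16.9% and 8.99% of all genes. Those 11 were 3 of 8 nucleotide and cofactor carriers, 2 of 3 di- and tricarboxylate carriers and 2 of 3 uncoupling-protein-like carriers. The rest were 1 of 3 calcium-regulated carriers, 1 of 3 aspartate and glutamate carriers, 1 of 4 other amino acid carriers and 1 of 4 iron and glutathione carriers. Means were higher for 22 members and lower for 14, where 57.4% of all genes had a higher mean; with TMM scaling 16 members were higher and 20 lower, and 48.9% of all genes were higher. The median log2 change of the members was 0.04, or -0.02 with TMM scaling of the RPKM values, and that of all genes 0.05, or -0.01. Of the 36 members, 10 had their highest level in 6 h replicate 3, 8 in 6 h replicate 1 and 8 in control replicate 1, where 9.95%, 10.3% and 11.5% of all genes had theirs.

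At 6 h against 2 h, 0 of 36 members were called by limma, where 0.143% of all genes were. edgeR called 0 of 35 members and 0.489% of all genes, and DESeq2 5 of 36 members and 6.64% of all genes. At an unadjusted p below 0.05, 7 members were higher and 0 lower, against 9.88% and 6.52% of all genes. Groups did not overlap for 10 higher members and 1 lower member, against 13.7% and 8.97%. Means were higher for 24 members and for 57.5% of all genes, and the median log2 change was 0.10 for the members and 0.05 for all genes. The 2 h and 6 h comparisons share their 3 controls, so the values of a member in them are not independent. The authors' deposited table gives a raw p below 0.05 to 7 members at 2 h and 9 at 6 h, against 19.1% and 17.3% of all genes, and an adjusted p below 0.05 to 0 at either time.

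**Figure D4:**
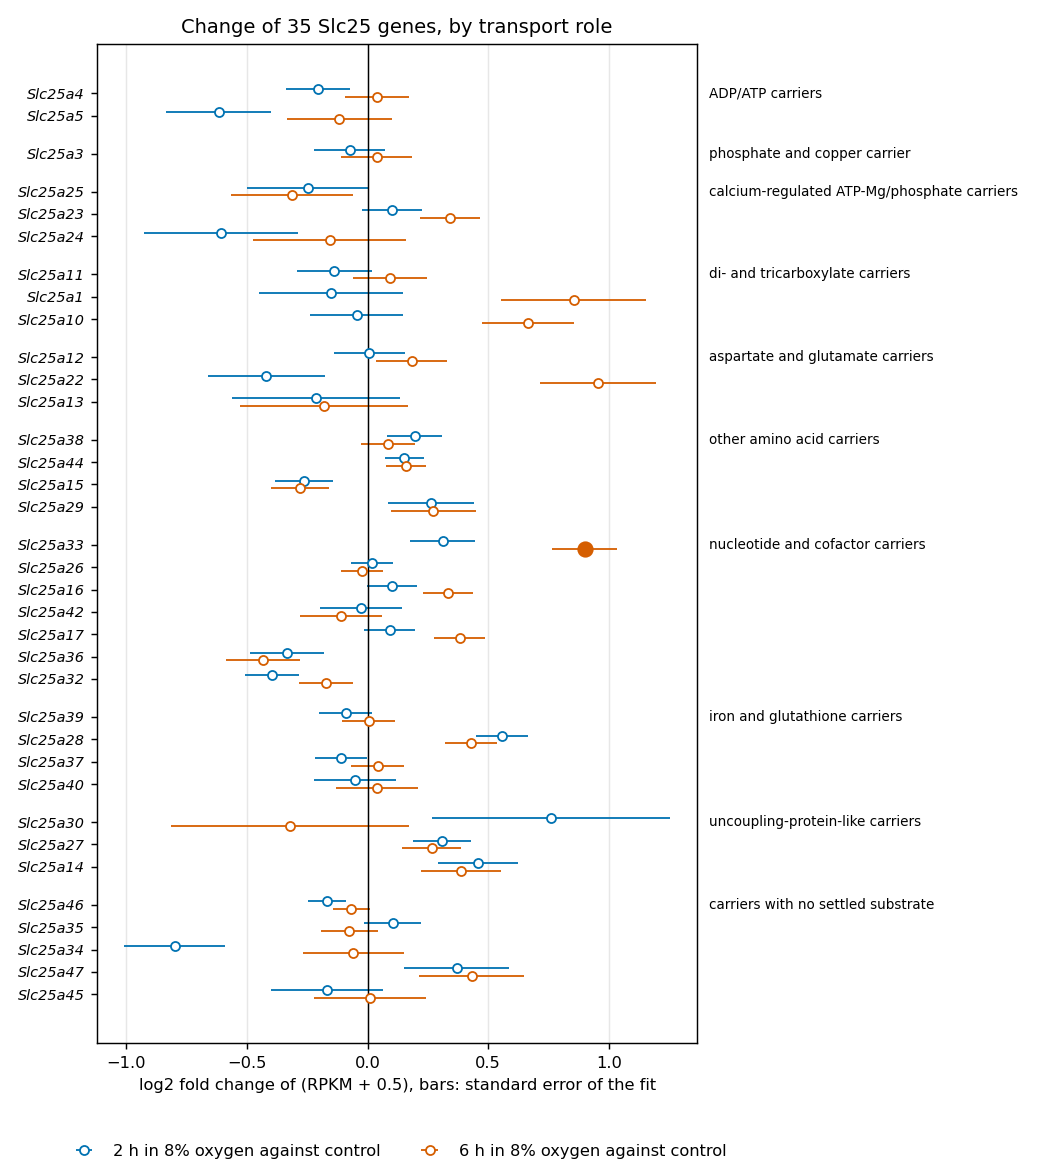
Log2 fold change of RPKM + 0.5 for 35 of the 36 members at 2 h (blue) and 6 h (orange) against control, with the standard error of the limma fit, grouped by transport role. The filled point, Slc25a33 at 6 h (0.90), is the one change that passed the adjusted p threshold of 0.05.

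Genes that work with the carriers were taken as 4 lists. Of all 13309 genes tested by limma, 2678, 2543 and 2183 had an unadjusted p below 0.05 at 2 h, at 6 h and at 6 h against 2 h. In the same order, limma called 0.774%, 1.6% and 0.143% of all genes, edgeR 1.42%, 2.5% and 0.489%, and DESeq2 10.3%, 8.31% and 6.64%. The counts of each list are to be read beside these. Of 20 enzymes that use what the carriers deliver, 0 were called by limma in any comparison, with 5, 3 and 5 at an unadjusted p below 0.05 at 2 h, at 6 h and at 6 h against 2 h; edgeR called 0 each time and DESeq2 2 each time. Ckmt2, the mitochondrial creatine kinase that takes up the ATP exported by the ADP/ATP carrier, stood at 1397, 1309 and 1003 RPKM in control, at 540, 617 and 785 RPKM at 2 h, and at 908, 924 and 1302 RPKM at 6 h. All 2 h libraries lay below all others, and the log2 change at 2 h was -0.94 ± 0.19 (adjusted p = 0.0569). Tk2, the mitochondrial thymidine kinase that makes pyrimidine nucleotides inside the matrix, averaged 1.99 ± 0.309 RPKM in control, 1.83 ± 0.275 RPKM at 2 h and 3.03 ± 0.145 RPKM at 6 h. Its log2 change was 0.51 at 6 h (adjusted p = 0.0924) and 0.61 at 6 h against 2 h (adjusted p = 0.103).

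Of 25 tested genes for other mitochondrial transport, among them the uncoupling proteins, the pyruvate carrier, the calcium uniporter and the porins, 1 rose at 6 h and 0 fell. The gene was Ucp3, the uncoupling protein of skeletal muscle, a mitochondrial carrier by sequence whose symbol lies outside the Slc25 set. It stood at 89.9, 75.4 and 95.3 RPKM in control, at 69.7, 126.9 and 108.8 RPKM at 2 h, and at 180.4, 158.6 and 183.7 RPKM at 6 h. The 6 h libraries lay above all others, and the rise passed narrowly (log2 1.00 ± 0.20, adjusted p = 0.0488). Over 21 alternatives added for this gene after its call was seen, Ucp3 was called in 8 (adjusted p between 0.000845 and 0.329, log2 between 0.91 and 1.07), and edgeR did not call it. The call was lost without each single control or 6 h library other than 6 h replicate 2, and also without 2 h replicate 2 or 3. At 2 h, limma called 0 genes of this list, with 1 at an unadjusted p below 0.05, Mtch2, an outer membrane relative of the carriers (log2 0.39, adjusted p = 0.109). edgeR called 0 genes of this list in all 3 comparisons and DESeq2 1 in each, and limma called 0 at 6 h against 2 h, with 2 at an unadjusted p below 0.05.

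Of 15 tested genes of the import path that inserts carriers into the inner membrane, 0 were called in any comparison by limma or edgeR, with 5, 0 and 3 at an unadjusted p below 0.05 by limma, and DESeq2 called 1 at 2 h and 0 in the other comparisons. Tomm40l, a relative of the outer membrane import pore, had log2 changes of -0.32 at 2 h and 0.09 at 6 h against control (limma adjusted p = 0.171 and 0.718). At 6 h against 2 h it had 0.40 (adjusted p = 0.148). Timm22, the pore of the carrier translocase, had -0.28, 0.00 and 0.28 in the same 3 comparisons (adjusted p = 0.147, 0.993 and 0.194).

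Of 20 regulators of mitochondrial biogenesis, 0 were called by limma, with 3, 5 and 1 at an unadjusted p below 0.05. edgeR called 2, 1 and 0, and DESeq2 2, 4 and 0. Nr4a3, an orphan nuclear receptor, stood at 2.52, 5.14 and 5.55 RPKM in control, at 0.835, 1.74 and 1.06 RPKM at 2 h, and at 1.07, 1.62 and 1.51 RPKM at 6 h. All exposed libraries lay below all controls, and the controls that were highest were the matrix-rich replicates 2 and 3 (log2 -1.49 ± 0.29 at 2 h, adjusted p = 0.0539). Ppargc1b, a coactivator of mitochondrial gene programmes, averaged 1.58 ± 0.163 RPKM in control, 0.786 ± 0.155 RPKM at 2 h and 0.924 ± 0.0793 RPKM at 6 h. Its log2 change was -0.69 ± 0.15 at 2 h (adjusted p = 0.0600) and -0.54 at 6 h (adjusted p = 0.104).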

How the data were processed

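RNA of 9 plantaris libraries (0, 2 and 6 h in 8% oxygen, 3 each) was sequenced as paired-end TruSeq libraries, per the labels' protocols. Bowtie2, TopHat2, SAMtools, bedtools and FastQC are named with the build mm9 in the submitters' processing notes. Neither the tool that counted reads nor its handling of strand is given in the sources used here. The authors deposited 1 table with RPKM values per library (a unit recognised from the values), the largest read count of each gene, and their raw and adjusted p-values.

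Low RPKM values move in steps that returned whole reads, within 0.1 read, for 100% of 40173 values below 500 reads. Recovered totals describe relative depth. All 36 pairs of libraries differed beyond counting noise. limma 3.58.1 in R 4.3.3 was fitted to the 9 libraries on log2(RPKM + 0.5), with group means and a mean-variance trend. The 13309 genes that averaged 0.5 RPKM or more were tested, all 36 members included. Fold changes on this scale understate those of genes near 0.5 RPKM. p-values were adjusted by Benjamini-Hochberg within a comparison, and a gene was called below 0.05. The fit was tested on simulated data. edgeR 4.0.16 and DESeq2 1.42.0 on the recovered reads, and other scalings, filters, weights and libraries, were alternatives.

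The members and gene lists were chosen with earlier results of these data known, so their counts are descriptions. Values are given in every library for called members, the 6 most abundant members, the largest rise and fall of each comparison and members with an unadjusted p below 0.01; of each list, called genes and the 2 with the smallest p are named. Promoters come from RefSeq (GRCm38.p6), and coordinates of genes from the deposited table (mm9). 1 gene of the symbol pattern was left out of the set, and 1 of the 36 members is counted but its own values are not reported here.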

Additional observations from a re-analysis of the deposited data

How the results depend on the processing

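Over 21 alternatives, the 16 values of members named for their change (336 in all) kept their direction and side of the threshold in 303. In 26 they passed the threshold where the reported fit did not, in 6 Slc25a33 at 6 h no longer passed, and in 1 the sign turned (Slc25a30 at 2 h, -0.35 without the 3 matrix-rich libraries, where its high control, replicate 1, is the only control). Slc25a33 at 6 h passed in 15 of 21 (log2 0.82 to 1.03, adjusted p 5.75e-05 to 0.270; edgeR 0.0317). Slc25a28 at 2 h and Slc25a34 at 2 h each passed in 4, and Slc25a22 in 3 at 6 h and in 3 at 6 h against 2 h. The count of members called at 2 h was 11 with library weights (23.1% of all genes), 3 with DESeq2 (10.3%) and 1 in a fit of control and 2 h alone (0.932%). Leaving out each library it was 0 to 2, with 1 without control replicate 1 (1.2% of all genes) and 2 without 6 h replicate 2 (2.98%). At 6 h the count was 14 with library weights (30.9%) and 4 with DESeq2 (8.31%). Leaving out each library it was 0 to 3, with 3 without 6 h replicate 2 (3.13%). It was 0 without control replicate 2 or 3 (0.188% and 0.113% of all genes) and without 6 h replicate 1 or 3 (0.135% and 0.0751%). The fit without the 3 matrix-rich libraries leaves 1 control. At 6 h against 2 h the count was 1 with library weights (0.894%), 1 with a term for the matrix-rich libraries (0.744%) and 5 with DESeq2 (6.64%). The cause of these shifts was not tested; fewer libraries enter the fits that leave some out.

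With the replicate number as a block, 0 members and 0.323% of all genes were called at 6 h (Slc25a33 adjusted p = 0.0605). The labels do not say that libraries of the same number share an animal or a batch. Same-numbered libraries correlated between -0.331 and 0.493, and the best match had its own number in 5 of 18 cases. These values cannot settle whether same-numbered libraries share a batch, so the block is given as an alternative. With TMM scaling, calls among all genes at 6 h moved from 133 higher and 80 lower to 97 and 167, the median of all genes from 0.05 to -0.01 and that of the members from 0.04 to -0.02. Reads were fewest for Slc25a13, with 1 to 9 per library, and then for Slc25a45, with 23 to 88.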

Other observations

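The split of Slc25a30 was looked at after its values were seen. Those values picked the libraries of the split, and other splits were not counted. The counts below therefore do not say how unusual such a split is. Control replicate 1 and 2 h replicates 2 and 3 lay more than 2-fold above each of the other 6 libraries for Slc25a30 and for no other gene of the 13309 tested. At a margin of 1.2-fold the same split was present in 3 genes, Banp, Slc25a30 and Zfp14, and with no margin in 100 genes. The libraries with the high values differ from those of high matrix, Schwann and slow fibre genes. Recovered reads were highest in these same libraries, at 124371299 (control replicate 1), 127765990 (2 h replicate 2) and 137097900 (2 h replicate 3). The other 6 libraries had between 72706707 and 117684241 reads. Whether depth or another trait of these libraries bears on the split was not tested.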
